A study of Homo sapiens with 9 samples.

Results

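The 10 genes described here encode transcription factors that specify the neural crest or drive the epithelial-to-mesenchymal transition (EMT) of crest cells: TFAP2A, TFAP2B, TFAP2C, TWIST1, TWIST2, SNAI1, SNAI2, ZEB1, ZEB2 and ETS1. They were chosen by symbol, and each matched 1 of the 25593 loci in the deposited expression tables. The tables hold FPKM, fragment numbers scaled to transcript length and to the mapped fragments of the library, for 9 crest-like cultures made from H9, a human embryonic stem cell line in wide use. H9 clumps were differentiated for 6 days with 10 µM SB431542, which blocks the type I receptors of TGF-β, Activin and Nodal, and crest-like cells were sorted and expanded on fibronectin under 5% oxygen. Group F was expanded with 5 to 10 ng/ml FGF2 alone. Group FSB received FGF2 together with 3 to 5 µM SB431542. Group F_FSB was expanded in the FSB medium for 4 passages and then in FGF2 alone for 3 passages. Harvest was at passage 6 to 7, and each group has 3 samples that the series text calls biological replicates. All of them, the F group included, saw SB431542 during differentiation, and all come from 1 cell line. The labels split FSB cultures after 4 passages into those kept in FSB and those moved to F, so the F_FSB and FSB groups share their early history. The sort is given as high CD271 without CD73 in the growth protocol and as positive for both in the cell type label.

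The crest arises at the border of the neural plate, where AP-2 factors (the TFAP2 genes) act early to specify it and later help to keep its identity. SNAI and ZEB factors are zinc finger repressors that bind E-box motifs and silence epithelial genes such as E-cadherin, and TWIST factors are basic helix-loop-helix proteins of cranial mesenchyme that also take part in EMT. ETS1, an ETS family factor, is a marker of migrating cranial crest. TGF-β signalling is a known inducer of SNAI, ZEB and TWIST genes in many epithelial cells, and the cultures differ in whether that signalling was inhibited.

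ZEB1 and ZEB2 were called in opposite directions between F and FSB, so the RefSeq promoter windows of both (GRCh38.p14 table, 250 bases before to 50 after a start) are shown first. The windows examined were 12 in all, from only 5 of the 10 genes (TFAP2A, TFAP2B, TWIST2, ZEB1 and ZEB2). Each was matched to GRCh37, the build of the files, where it was found 1 time. The ZEB1 window nearest the 5′ end of the quantified locus lies at chr10:31607895-31608194 on the plus strand, and the ZEB2 window at chr2:145277637-145277936 on the minus strand. Capitals mark the E2-box CACCTG and the ETS core CCGGAA on either strand, and no match overlapped another.
ZEB1: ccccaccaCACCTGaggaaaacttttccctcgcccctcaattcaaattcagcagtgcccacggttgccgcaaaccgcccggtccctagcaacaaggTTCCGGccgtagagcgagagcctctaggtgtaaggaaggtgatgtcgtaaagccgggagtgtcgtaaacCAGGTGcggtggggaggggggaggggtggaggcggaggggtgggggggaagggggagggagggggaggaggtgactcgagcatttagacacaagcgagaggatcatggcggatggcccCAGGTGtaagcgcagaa
ZEB2: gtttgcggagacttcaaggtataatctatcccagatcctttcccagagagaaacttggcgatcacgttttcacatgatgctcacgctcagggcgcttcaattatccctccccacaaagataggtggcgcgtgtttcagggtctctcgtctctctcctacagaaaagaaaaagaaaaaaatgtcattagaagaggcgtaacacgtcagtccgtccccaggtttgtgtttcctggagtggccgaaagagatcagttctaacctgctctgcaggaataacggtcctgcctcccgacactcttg
The ZEB1 window holds 3 E2-boxes and 1 ETS core, and the ZEB2 window holds none of the motifs searched, the AP-2 motif GCCNNNGGC included. Of 35116 promoter windows of the same 300 bases, 20.6% hold an E2-box, 0.635% hold 3 or more, 17.2% hold an ETS core and 23.2% hold the AP-2 motif. ZEB1 has several of the 12 windows and ZEB2 only 1, so matches over all windows of the 2 genes are not like for like. Elsewhere among the 12 windows, 1 further ZEB1 window has 1 E2-box, 1 further ZEB1 window has 1 AP-2 motif, the TWIST2 window has 1 AP-2 motif, and those of TFAP2A and TFAP2B have none of the 3 motifs. These matches describe letters only.

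FPKM sums ran from 361026 to 506146, and the tables hold no fragment counts, so depth is known only roughly. Judged from the Cufflinks intervals of low genes, F_FSB replicate 2 had 64.4% of the depth of the deepest library and the others 84.2% to 100%. Over 7207 genes of at least 5 FPKM in every library, the Cufflinks intervals of F replicate 1 overlapped those of F_FSB replicate 1 in 79.5% of genes, but those of F replicates 2 and 3 in 65.4% and 68.6%. FSB replicates 1 and 2 were the closest pair of one group, with 80.5% overlapping, against 61.0% to 68.6% for the other within-group pairs, and they were kept as 2 replicates. Of the genes named in the sort, NGFR (CD271) averaged 20.0, 120.3 and 4.89 FPKM in F, FSB and F_FSB, and NT5E (CD73) 72.9, 20.0 and 63.0. The F libraries differed widely in NGFR, from 0.725 to 41.3 FPKM. SOX9, named in the series title, averaged 32.5, 34.2 and 19.5 FPKM. In bulk RNA, fewer cells of a type and less RNA per cell cannot be told apart.

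**Figure D1:**
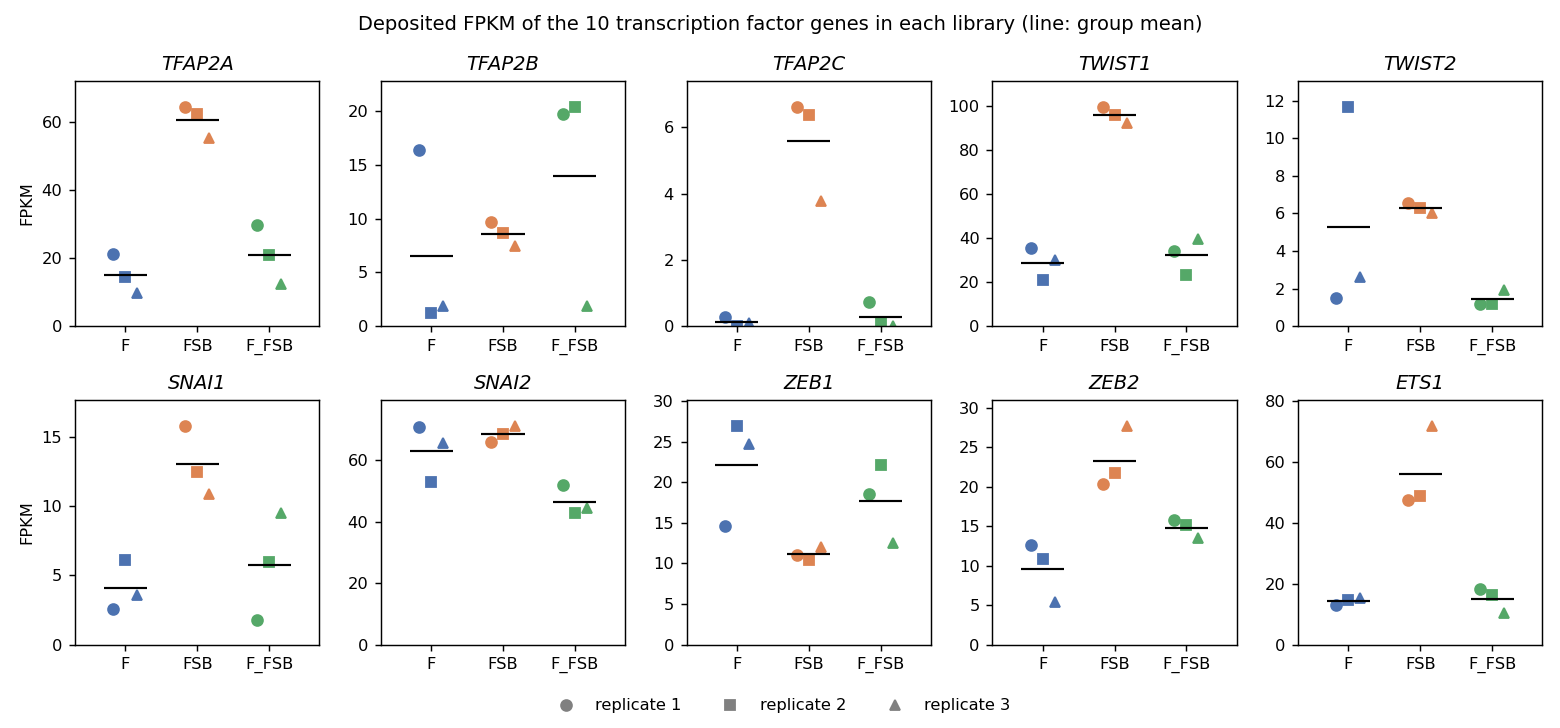
Deposited FPKM (vertical axis, linear, from 0) of each of the 10 genes in the F, FSB and F_FSB libraries, with a symbol for each replicate and a line at the group mean of 3 libraries. TFAP2A, TFAP2C, TWIST1, SNAI1, ZEB2 and ETS1 have all 3 FSB libraries above all 3 F libraries, ZEB1 has all 3 below, and TFAP2B, TWIST2 and SNAI2 overlap.

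Inhibiting TGF-β-type receptors during expansion (FSB against F) went with higher RNA of most of these factors. Tested with limma on log2(FPKM + 1) over 13216 genes, 6 of the 10 were higher in FSB, 1 was lower and 3 did not pass a Benjamini-Hochberg (BH) adjusted p of 0.05. The comparison called 41.9% of all genes tested, 28.5% as higher (3763 genes) and 13.4% as lower (1773). Scaling by median ratios took the median change of all genes from 0.14 to 0.0023 and the calls to 2424 higher and 2461 lower, and 5 of the 10 genes were then higher and 1 lower. The library ranges of FSB and F did not overlap for 7 of the 10 genes (6 of them higher), and for 57.9% of all genes (38.7% higher, 19.2% lower). Median log2 change was 1.38 over the 10 genes and 0.14 over all genes. All 10 passed the filter on low values (1 FPKM or more in at least 3 libraries). TFAP2C passed through the FSB libraries alone and so had to differ, and over the remaining 9 genes 5 were higher and 1 lower. The calls of TFAP2A, TFAP2C, TWIST1, ZEB2 and ETS1 were kept in all 19 alternative analyses, and those of SNAI1 (higher) and ZEB1 (lower) were not.

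Moving FSB cells to FGF2 alone (F_FSB against FSB) went with lower RNA of TFAP2A, TFAP2C, TWIST1, TWIST2, SNAI2 and ETS1. Thus 6 of the 10 were lower, 0 higher and 4 did not pass, in a comparison that called 41.8% of all genes, 28.2% as lower (3722 genes) and 13.7% as higher (1805). With median ratios the calls were 2524 lower and 2505 higher, and of the 10 genes 5 lower and 1, ZEB1, higher. Ranges did not overlap for 9 of the 10, 8 of them lower in F_FSB, against 55.8% of all genes and 36.6% in the lower direction. The median log2 change was -1.40 over the 10 genes and -0.13 over all genes. Without TFAP2C, 5 of 9 were lower. FSB libraries are part of both comparisons, so a high FSB value enters each of them.

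Between the groups that ended in FGF2 alone (F_FSB against F), limma called 0 of the 10 genes, and 0.00757% of all genes tested, which is 1 gene. At an unadjusted p under 0.05 there were 2 of the 10, SNAI2 and ZEB2, and 1195 genes or 9.04% of all. Ranges did not overlap for 2 of the 10, ZEB2 higher and SNAI2 lower in F_FSB, and for 13.0% of all genes (6.28% higher, 6.76% lower). Summed over the 10 genes, FPKM averaged 349.4 ± 8.45 in FSB, against 168.8 ± 16.6 in F and 168.6 ± 22.9 in F_FSB (SD, n = 3). The FSB sums, from 342.0 to 358.6, lay above every F and F_FSB sum, which reached at most 191.7. Without F replicate 1 the whole comparison called 77 genes, none of them among the 10.

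**Figure D2:**
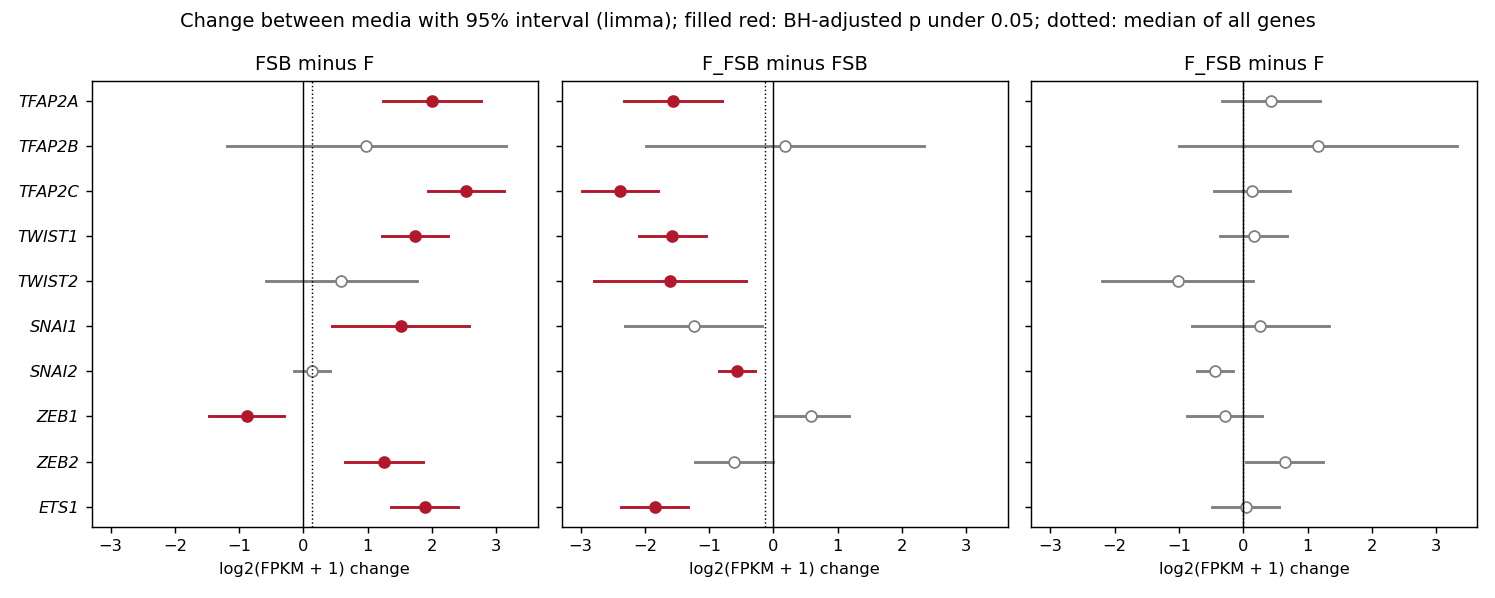
Change in log2(FPKM + 1) of each gene (horizontal axis) in the 3 comparisons, with the 95% interval from limma. Filled red points passed a BH-adjusted p of 0.05, open grey points did not, and the dotted line is the median of all 13216 genes. The left panel has 6 filled points to the right of 0 and 1 (ZEB1) to the left, the middle panel has 6 to the left, and the right panel has none.

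Among the AP-2 factors, TFAP2A (6:10396916-10419797, GRCh37), the AP-2 paralog most associated with crest induction, had the highest level of the 3 in every FSB library. It stood at 21.2, 14.5 and 9.64 FPKM in F, at 64.4, 62.4 and 55.3 in FSB, and at 29.7, 21.0 and 12.4 in F_FSB. All FSB libraries lay above all others, and the F and F_FSB ranges overlapped. By limma it was higher in FSB than F by 2.00 ± 0.33 (SE, log2 scale; adjusted p = 0.00261) and lower in F_FSB than FSB by 1.57 (log2 change -1.57, adjusted p = 0.00694). TFAP2C (20:55204358-55214339), a paralog also used in trophoblast and germ cells, was near 0 outside FSB. Its F values were 0.285, 0 and 0.0862 FPKM, its FSB values 6.61, 6.37 and 3.79, and its F_FSB values 0.722, 0.0842 and 0. TFAP2C passed the filter on low values through the FSB libraries alone and so had to differ in both comparisons with FSB. The limma change was 2.53 ± 0.26 for FSB against F (adjusted p = 0.000369) and -2.39 for F_FSB against FSB (adjusted p = 0.000454). The pseudocount of 1 understates such changes of low genes, and with 0.1 the first became 4.84.

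TFAP2B (6:50786439-50815326), which is needed for facial and limb development, varied widely within F and within F_FSB. In F it had 16.4, 1.25 and 1.86 FPKM, in FSB 9.63, 8.64 and 7.40, and in F_FSB 19.7, 20.4 and 1.87. F replicate 1 and F_FSB replicates 1 and 2 were high, F replicates 2 and 3 and F_FSB replicate 3 were low, and the FSB libraries lay in between. No comparison passed. The change for FSB against F was 0.98 (95% interval -1.18 to 3.14, adjusted p = 0.433 by limma), which covers large changes of either sign. Leaving out F replicate 1 moved it to 1.91, still not past the threshold (lowest adjusted p over all alternatives 0.103). For F_FSB against FSB the value was 0.18, and it turned to -0.28 and -0.31 without F_FSB replicate 1 or 2.

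ETS1 (11:128328656-128457453), in chick work a factor of cranial crest delamination, stood at 12.8, 14.5 and 15.2 FPKM in F, at 47.6, 48.9 and 71.9 in FSB and at 18.4, 16.4 and 10.2 in F_FSB, and the lowest FSB library was above the highest of the others. The limma change was 1.89 ± 0.23 in FSB against F (adjusted p = 0.000689) and -1.85 in F_FSB against FSB (adjusted p = 0.000773). Its difference between F_FSB and F was 0.04 (95% interval -0.48 to 0.56).

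TWIST1 (7:19155091-19157295), a basic helix-loop-helix factor of the cranial mesenchyme, was the highest of the 10 in FSB. The F libraries had 35.3, 20.9 and 30.0 FPKM, the FSB libraries 99.5, 96.2 and 92.2, and the F_FSB libraries 34.1, 23.2 and 39.8. FSB libraries were thus all above the others and close to each other. The limma change was 1.74 ± 0.23 (adjusted p = 0.000954) for FSB against F and -1.57 (adjusted p = 0.00136) for F_FSB against FSB. The deposited FPKM of TWIST1 lay above its own Cufflinks interval in 7 libraries, and that of SNAI2 in 8, which was seen for none of the other 8 genes, so levels of these 2 genes relative to the other 8 are uncertain. Its paralog TWIST2 (2:239756673-239795893), which acts in dermal and skeletal mesenchyme, had 1.51, 11.7 and 2.60 FPKM in F, 6.56, 6.27 and 6.05 in FSB, and 1.17, 1.15 and 1.92 in F_FSB. One library, F replicate 2, was higher than any FSB library, while the other F libraries were lower than all of them. FSB against F gave 0.59 (adjusted p = 0.387 by limma), and without F replicate 2 it gave 1.28 (adjusted p = 0.00424). TWIST2 was lower in F_FSB than in FSB (log2 change -1.61, adjusted p = 0.0357 by limma), with ranges that did not overlap, but the call was lost without any 1 of the 3 FSB or 3 F_FSB libraries.

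Of the SNAI pair, SNAI2 (8:49830236-49833999), the SLUG repressor long used as a crest marker, was high everywhere, with 70.8, 53.0 and 65.5 FPKM in F, 66.1, 68.5 and 71.2 in FSB, and 51.8, 42.7 and 44.4 in F_FSB. The F and FSB ranges overlapped, and every F_FSB library was below every other library. FSB against F gave 0.13 (95% interval -0.15 to 0.41, adjusted p = 0.427 by limma), which turned to -0.03 when libraries were scaled by median ratios or quantile normalized. F_FSB against FSB gave -0.56 ± 0.12 (adjusted p = 0.00746), and F_FSB against F gave -0.43 (unadjusted p = 0.00704, adjusted p = 0.501). SNAI1 (20:48599513-48605423), the founding SNAIL repressor and a direct TGF-β target in many epithelia, had 2.56, 6.13 and 3.60 FPKM in F, 15.8, 12.5 and 10.9 in FSB, and 1.79, 5.95 and 9.50 in F_FSB. All FSB libraries exceeded all others, and the F_FSB libraries were spread widely. The change of 1.51 ± 0.46 for FSB against F passed (adjusted p = 0.0311 by limma) but was lost without any of the 3 FSB replicates or F replicate 1 or 3, with an adjusted p of up to 0.0953. F_FSB against FSB gave -1.24 (adjusted p = 0.0609), which passed without F_FSB replicate 3 (adjusted p = 0.0220) and moved to -0.70 without F_FSB replicate 1.

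ZEB1 and ZEB2, large zinc finger and homeodomain repressors with similar DNA binding, were the family called in opposite directions between F and FSB. ZEB1 (10:31608101-31818742) had 14.6, 27.0 and 24.7 FPKM in F, 11.0, 10.5 and 12.1 in FSB, and 18.6, 22.1 and 12.5 in F_FSB, so every FSB library was below every other library. The limma change of -0.88 ± 0.25 for FSB against F passed (adjusted p = 0.0249) and was lost when F replicate 2, F replicate 3, FSB replicate 1 or FSB replicate 2 was left out, with an adjusted p of up to 0.0806. For F_FSB against FSB it was 0.59 (adjusted p = 0.0952), past the threshold without F replicate 1 (0.0406) or F_FSB replicate 3 (0.0367). ZEB2 (2:145141942-145277958), mutated in Mowat-Wilson syndrome, in which crest derivatives are affected, had 12.6, 10.9 and 5.39 FPKM in F, 20.4, 21.8 and 27.7 in FSB, and 15.8, 15.2 and 13.5 in F_FSB. Its 3 groups did not overlap, with F lowest and FSB highest. FSB against F gave 1.25 ± 0.26 (adjusted p = 0.00678 by limma), while F_FSB against FSB gave -0.61 (adjusted p = 0.0942) and passed without F replicate 3 (adjusted p = 0.00983). F_FSB against F was 0.64 (95% interval 0.04 to 1.24, unadjusted p = 0.0391, adjusted p = 0.542).

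Within families, members were set side by side on the FPKM scale, which is per length. The TWIST and SNAI shares rest on the levels of TWIST1 and SNAI2, which lie above their own Cufflinks intervals in most libraries, and are uncertain to that extent. The ZEB family sum had overlapping ranges in the 3 groups, at 31.7 ± 5.51, 34.5 ± 4.63 and 32.6 ± 5.87 FPKM (SD, n = 3) in F, FSB and F_FSB, while its makeup differed. ZEB1 gave 69.0% ± 14.3 of the ZEB sum in F (53.7% to 82.1%), 32.6% ± 2.38 in FSB (30.3% to 35.1%) and 53.9% ± 5.59 in F_FSB (48.1% to 59.3%). The FSB range overlapped neither other range, and the difference of -36.4 percentage points between FSB and F had p = 0.1 in an exact two-sided permutation test, the smallest p that 3 against 3 can give. SNAI2 gave 93.6% ± 3.58 of the SNAI sum in F and 84.0% ± 3.08 in FSB, without overlap (exact permutation p = 0.1), and 88.9% ± 7.22 in F_FSB, which overlapped both. TFAP2A gave 77.1% ± 18.8, 81.2% ± 1.73 and 65.6% ± 18.9 of the AP-2 sum in F, FSB and F_FSB. TWIST1 gave 84.0% ± 17.3, 93.8% ± 0.0318 and 95.8% ± 0.778 of the TWIST sum, without overlap between FSB and F_FSB (exact permutation p = 0.1). Of the 12 share differences tested, none passed, and the lowest adjusted p was 0.3.

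**Figure D3:**
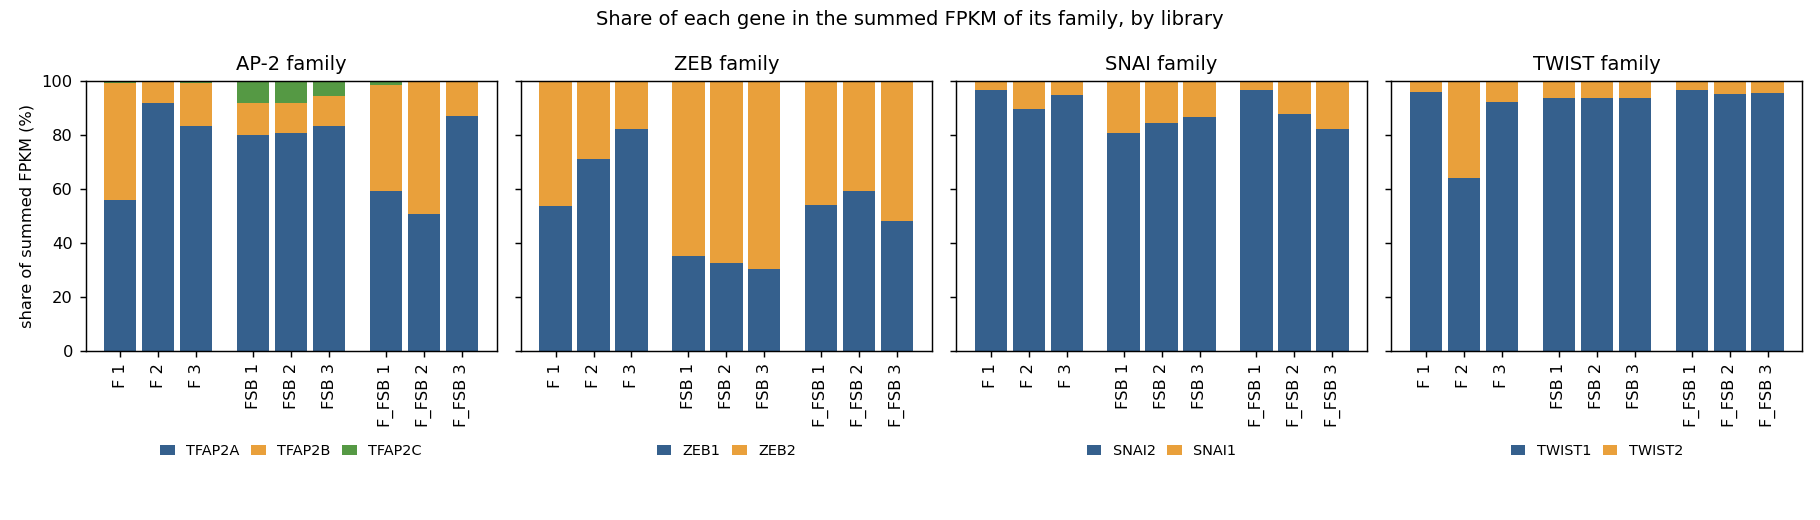
Share of each gene in the summed FPKM of its family (vertical axis, percent, from 0 to 100), with 1 bar for each of the 9 libraries in each of the 4 families with more than 1 gene here. ZEB1 fills 30.3% to 35.1% of the ZEB bars in FSB and 48.1% or more in the other libraries.

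The order of levels also differed between media. In F, SNAI2 was highest, with a range above that of TWIST1, then TWIST1, ZEB1, TFAP2A and ETS1 followed with each neighbour overlapping the next. ZEB2 lay below ETS1 without overlap, and by mean TFAP2B, TWIST2 and SNAI1 followed, each overlapping the next, with TFAP2C last. These genes were not set apart from those above. TFAP2B, at 16.4 FPKM in F replicate 1, reached into the ranges of ZEB1 and TFAP2A and above that of ETS1. ZEB2 and TWIST2 overlapped TFAP2A. In FSB, TWIST1 was above SNAI2 and SNAI2 above TFAP2A, both without overlap. ETS1, with 71.9 FPKM in FSB replicate 3, overlapped both SNAI2 and TFAP2A. All of these lay above ZEB2 without overlap. SNAI1 and ZEB1 overlapped below them, then came TFAP2B, and TWIST2 and TFAP2C overlapped at the bottom. In F_FSB, SNAI2 was again above TWIST1 without overlap, and each of the genes from TWIST1 down to TWIST2 overlapped its neighbour (order TWIST1, TFAP2A, ZEB1, ETS1, ZEB2, TFAP2B, SNAI1, TWIST2), with TFAP2C last.

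The SD of log2(FPKM + 1) between replicates was lowest in FSB for 7 of the 10 genes. The share of all genes tested with their lowest SD in FSB was not counted. Their median SD was lowest in FSB too, so the 7 are not read as a trait of these genes. ETS1 (0.12 in F, 0.33 in FSB) and TFAP2C (0.18 in F, 0.37 in FSB) were closest in F, and ZEB2 (0.22 in FSB, 0.11 in F_FSB) in F_FSB. The median SD of log2(FPKM + 1) over the 10 genes was 0.48 in F, 0.14 in FSB and 0.41 in F_FSB, beside 0.15, 0.12 and 0.17 over all genes tested. TFAP2B had the widest spread, with the highest library 13.1 times the lowest in F, 10.9 times in F_FSB and 1.30 times in FSB. Its SD exceeded that of 99.2% of tested genes in F and 98.8% in F_FSB. The Cufflinks intervals of TFAP2B in F were 15.2 to 17.2, 1.04 to 1.46 and 1.59 to 2.12 FPKM, so the high replicate stood far outside the intervals of the low ones. TWIST2 spanned 7.74 times in F and 1.08 times in FSB, and SNAI1 5.30 times in F_FSB. For TFAP2A, 0 of 3 pairs of libraries had overlapping intervals in F or in F_FSB, and for TWIST1, TWIST2 and SNAI2 all 3 pairs overlapped in FSB.

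**Figure D4:**
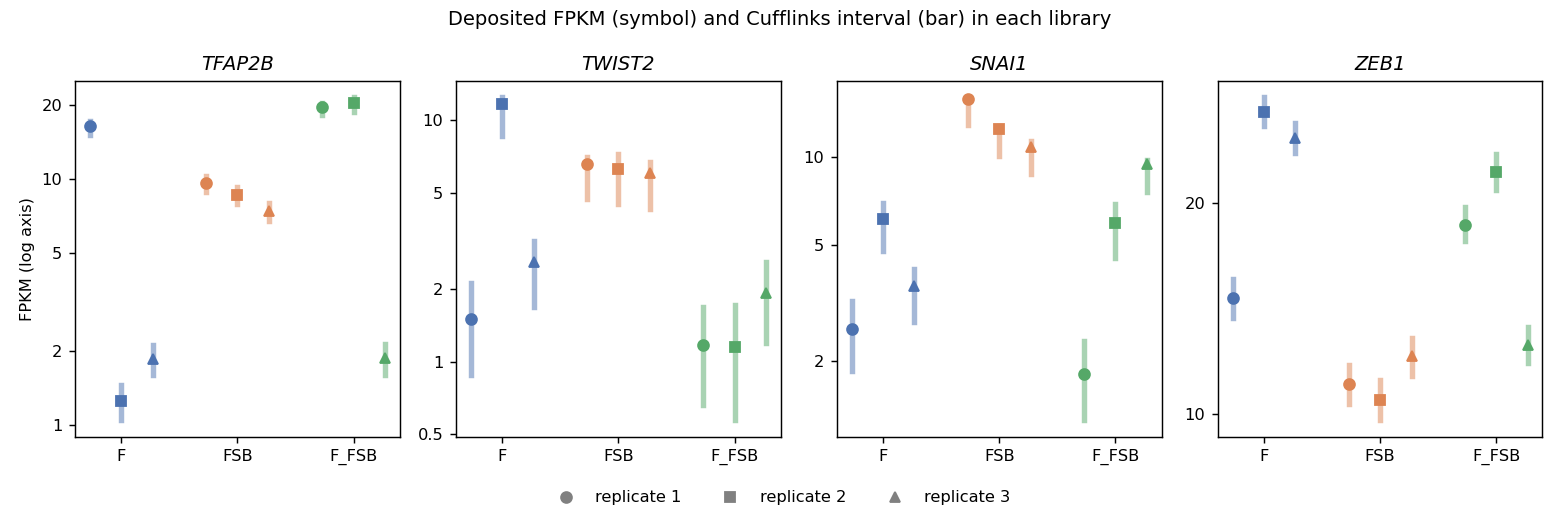
Deposited FPKM (symbols, log axis) and Cufflinks interval (bars) in each library for TFAP2B, TWIST2, SNAI1 and ZEB1. TFAP2B is above 16 FPKM in F replicate 1 and F_FSB replicates 1 and 2 and below 2 FPKM in F replicates 2 and 3 and F_FSB replicate 3, and TWIST2 is highest in F replicate 2.

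Overlapping or nearby loci were low. LOC100130275, which overlaps TFAP2A, had 0.347 to 2.78 FPKM, and LOC100505502 in ZEB1 and LOC100505471 in ZEB2 had at most 0.116 and 0.229. ZEB1-AS1, the antisense gene 77 bases from ZEB1, had 1.97 to 2.71 FPKM in all 9 libraries. LOC100287387, 353 bases from TWIST2, had 0.247 to 2.45 FPKM and, like TWIST2, was highest in F replicate 2. The kit keeps strand, but the sources do not say if Cufflinks used it, and reads of overlapping genes cannot be told apart.

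The genes of most similar profile across the 9 libraries were looked up for each called member. Likeness was measured as the mean absolute difference of mean-centred log2(FPKM + 1) values over 9286 candidate genes, and is a description. Nearest to TFAP2A was AVPR1A, a vasopressin receptor, at 0.0867, with group means of 1.33 and 8.20 FPKM in F and FSB, and next were PNMA2 (0.164) and SH2D3C (0.177). Nearest to ETS1 were APBA2 (0.0943), ZNF114 (0.150) and ALDH4A1 (0.181), and nearest to TWIST1 were LPAR2 (0.118), PCK2 (0.164) and MICAL3 (0.166). SNAI2 had the closest neighbours of all: the cell cycle kinase gene CDK4 (0.0715), its inhibitor's gene CDKN1B (0.0815) and NFYA (0.0863). The measure is not scaled to how much a gene varies. Genes with small changes, such as SNAI2, therefore tend to lie nearer to other genes than those that vary widely. ZEB1 was nearest to SH3D19 (0.132), ACPL2 (0.138) and DOCK6 (0.150), and ZEB2 to LIMS2 (0.125), MLLT4 (0.159) and GBE1 (0.163). TFAP2C was nearest to DUSP9 (0.177), C3orf52 (0.198) and SHROOM3 (0.200). TWIST2 (RALGPS2, 0.254; ETS2, 0.272; FLNC, 0.273) and SNAI1 (RAB3D, 0.284; FDPS, 0.303; CCNDBP1, 0.316) had the more distant ones. Among the 10 themselves, TWIST1 and ETS1 (0.342), TFAP2A and ETS1 (0.346) and TFAP2A and TWIST1 (0.372) were nearest, and TFAP2B and TWIST2 were farthest apart (1.51).

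Genes that work with these factors were counted by list, and nothing particular to a list is read from its counts. Over all genes tested, 28.5% were higher and 13.4% lower in FSB against F (median 0.14), and 13.7% higher and 28.2% lower in F_FSB against FSB (median -0.13). Of 23 partners and regulators of the factors (21 tested), 8 were higher in FSB than F, 1 lower and 12 not called by limma, with a median log2 change of 0.44. CTBP2, a corepressor recruited by ZEB proteins, rose from 16.9 ± 2.49 to 35.5 ± 1.27 FPKM (1.04, adjusted p = 0.000329). HDAC1 and KDM1A, histone-modifying enzymes that SNAI1 recruits, rose by 0.69 (adjusted p = 0.000594) and 0.60 (adjusted p = 0.000905). In F_FSB against FSB 1 was higher and 11 lower (median -0.49), and all of CTBP2 (-0.88), HDAC1 (-0.77) and KDM1A (-0.66) were among the lower. That lower count was 6 to 11 when any 1 library was left out, and 7 with median ratios.

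Of 17 other crest specifiers, 12 were tested, and 2 were higher, 2 lower and 8 not called in FSB against F (median 0.33). MYCN, a MYC family gene of early crest, rose from 1.44 ± 0.480 to 17.6 ± 2.50 FPKM (2.94, adjusted p = 5.06e-05) and stood at 0.797 ± 0.266 in F_FSB. SOX8, a SOXE factor, had 0.744, 8.60 and 0.845 FPKM in F, FSB and F_FSB (2.46, adjusted p = 0.000924 by limma for FSB against F). NR2F2, an orphan nuclear receptor of crest, fell from 105.8 ± 5.36 to 64.2 ± 10.6 FPKM in FSB (adjusted p = 0.00252) and had 105.0 ± 5.66 in F_FSB. In F_FSB against FSB, 1 of the 12 was higher and 5 lower (median -0.81). The lower count was 2 to 4 when 1 library was left out, and 2 with median ratios or with quantile normalization. The early specifiers FOXD3 and SOX10 were below the filter, with means of at most 0.0151 and 0.612 FPKM.

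Among the paralogs listed outside the 10 genes, none of those tested was called higher in FSB. Of 10 listed paralogs in the same families, 7 were tested, all of them ETS family genes. In FSB against F, 0 were higher, 2 lower and 5 not called (median -0.61). There was 1 lower when F replicate 2, F replicate 3, FSB replicate 1 or FSB replicate 3 was left out. ELK3, an ETS family repressor, fell from 63.2 ± 4.54 to 35.0 ± 3.53 FPKM (adjusted p = 0.000656 by limma) and had 54.8 ± 3.56 in F_FSB. The ETS factor gene ETV1 averaged 18.8, 9.61 and 13.0 (adjusted p = 0.0275, up to 0.0847 when any of those 4 libraries was left out). In F_FSB against FSB 1 paralog was higher and 0 lower. TFAP2D was listed at 0 in all libraries, TFAP2E averaged at most 0.139 FPKM in a group, and SNAI3 0.643 to 0.771.

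Genes that EMT factors repress or that mark the mesenchyme were also counted. Of 28 epithelial genes 17 stayed under 1 FPKM in every library and 9 were tested. By limma 5 were higher in FSB than F, 1 lower and 3 not called (median 1.04), and leaving out 1 library gave 3 to 5 higher and 0 or 1 lower. Of the 5, CLDN6 and PKP3 reached 1 FPKM in FSB libraries alone and had to differ. CLDN6, a tight junction claudin, averaged 0.143, 2.88 and 0.143 FPKM in F, FSB and F_FSB, and JUP (plakoglobin) rose from 25.5 ± 5.62 to 49.3 ± 4.20 (adjusted p = 0.00959). PKP3, a desmosomal plakophilin, averaged 0.471, 2.11 and 0.660. KRT8, a simple epithelial keratin with the highest mean of the list over all 9 libraries, averaged 30.9, 94.2 and 67.9 FPKM (adjusted p = 0.0334 by limma, up to 0.103 when F replicate 2, F replicate 3, FSB replicate 1 or FSB replicate 2 was left out). CDH1, the classic target of SNAI and ZEB repression, averaged at most 0.0253 FPKM in any group and was not tested. In F_FSB against FSB 1 epithelial gene was higher and 2, CLDN6 and PKP3, lower. These 2 passed the filter through FSB alone and so had to differ here too, and none of the 7 others tested was called lower. The PKP3 call was lost without FSB replicate 1, FSB replicate 2 or F_FSB replicate 2 (adjusted p up to 0.0715 by limma). All 16 mesenchymal genes were tested, and 0 were higher, 9 lower and 7 not called in FSB against F (median -0.86), with 6 to 9 lower when 1 library was left out. MMP2, a matrix metalloproteinase, fell from 547.5 ± 86.6 to 55.3 ± 25.5 FPKM (-3.36, adjusted p = 0.000178) and had 574.1 ± 77.6 in F_FSB. CDH11, a mesenchymal cadherin, had means of 218.9, 41.2 and 176.2, and MMP14 of 320.7, 131.1 and 306.5. In F_FSB against FSB 10 mesenchymal genes were higher and 0 lower (median 1.08). VIM, the mesenchymal filament gene, averaged 1881 to 2173 FPKM with no call, and CDH2 26.6 to 47.9. In F_FSB against F, no gene of any list was called.

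**Figure D5:**
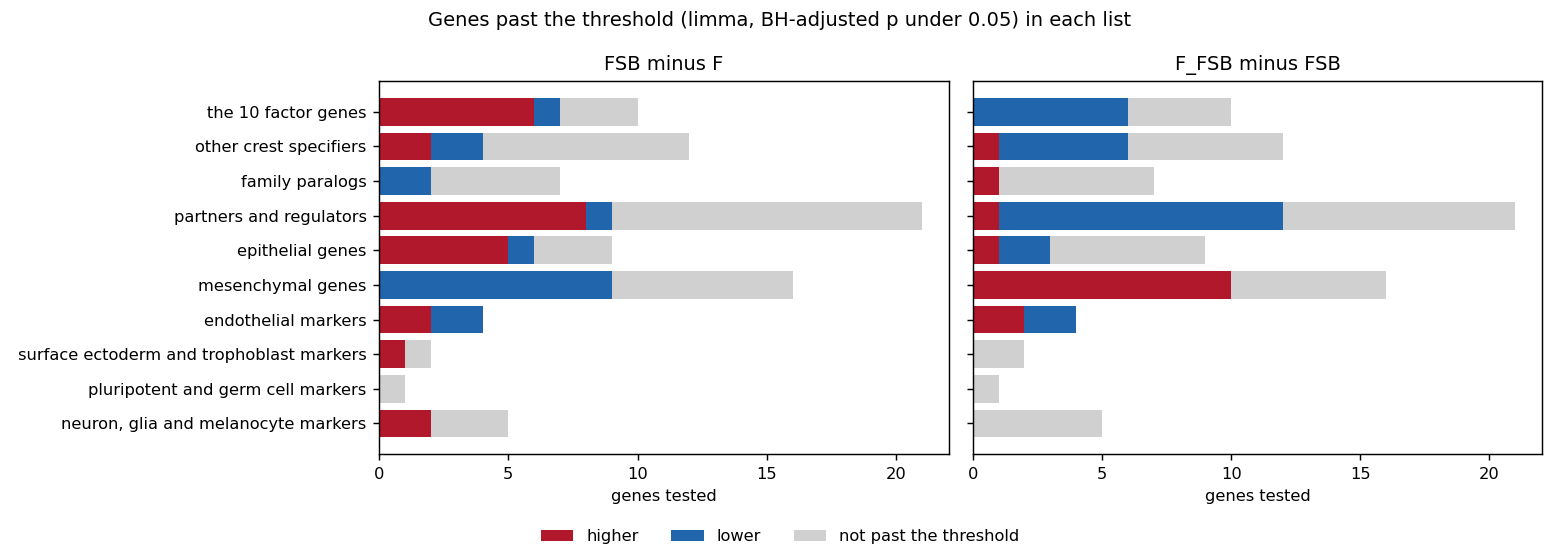
Number of genes tested (horizontal axis) in the 10 factor genes and in each list that were higher, lower or not past the threshold by limma, for FSB minus F and F_FSB minus FSB. The mesenchymal list has 9 lower and 0 higher genes in the first and 10 higher and 0 lower in the second, while the 10 factor genes have 6 higher and 1 lower in the first and 6 lower in the second.

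Several members are also expressed outside the crest, ETS1 in endothelium and TFAP2A and TFAP2C in surface ectoderm and trophoblast. Of 9 endothelial markers 4 were tested, of which 2 (CDH5 and TIE1) were higher and 2 (TEK and EMCN) lower in FSB than F, and the reverse held in F_FSB against FSB. CDH5 and TIE1 reached 1 FPKM in FSB libraries alone, so they passed the filter through the group where they are high and had to differ. Summed over all 9 endothelial markers, the level was 7.05 to 13.9 FPKM in F, 7.74 to 14.4 in FSB and 4.35 to 10.1 in F_FSB. CDH5 alone averaged 0.143, 3.43 and 0.208. Of the markers below the filter, ESAM had the highest FSB mean, with 0.832, 1.54 and 8.28 FPKM in the FSB libraries and at most 0.135 elsewhere. CLDN5 had 0.117 to 0.312 in FSB and at most 0.0362 elsewhere, and PECAM1 averaged 0.649, 0.233 and 0.694 in F, FSB and F_FSB. Of 10 surface ectoderm and trophoblast markers 7 stayed under 1 FPKM and 2 were tested. GATA3 was higher in FSB than F (0.645 ± 0.357 to 4.81 ± 3.98 FPKM, adjusted p = 0.0148 by limma, and 0.0507 without F replicate 2). Its FSB values were 2.62, 2.40 and 9.40 FPKM. In F_FSB it averaged 2.79 ± 0.758, with no call against FSB (adjusted p = 0.431 by limma). Sums were 1.49 to 5.36 in F, 4.50 to 10.2 in FSB and 3.51 to 9.44 in F_FSB, and TP63 was near 0 throughout. Of 10 pluripotent and germ cell markers 7 stayed under 1 FPKM and 1 (ZFP42) was tested and not called, with sums of 0.636 to 2.102, 1.90 to 8.59 and 0.986 to 3.22. Of 14 neuron, glia and melanocyte markers 7 stayed under 1 FPKM and 5 were tested. By limma 2 were higher in FSB than F, and 0 of the 5 were called in F_FSB against FSB, and leaving out 1 library gave 0 to 2 higher in FSB. PMEL, 1 of the 2, reached 1 FPKM in FSB libraries alone and had to differ. Sums over all 14 markers were 9.29 to 17.5 FPKM in F, 16.9 to 27.1 in FSB and 6.11 to 31.1 in F_FSB. The part of these cell types in the values of the 10 genes was not tested.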

How the data were processed

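Total RNA of 9 cultures was sequenced after strand-specific library preparation with a SureSelect kit, per the labels. TopHat2 2.0.12, Cufflinks 2.1.1 and the build GRCh37 are listed in the submitters' processing notes. The authors deposited Cufflinks gene tables of FPKM with confidence bounds, per the file headers, normalized to each library's own fragments. Their options are not stated. The tables hold no fragment numbers, so depth is known in relative terms. Loci with a status other than OK in any library (95, among them KCTD15) were left out, and the 13216 genes that reached 1 FPKM in 3 or more libraries were tested.

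The fit used limma 3.58.1 (R 4.3.3) on log2(FPKM + 1), with its trend option, 9 libraries together, two-sided tests and BH adjustment over all genes tested at 0.05. Fold changes are therefore on that scale and understate low genes. Family shares were tested with exact permutation tests (scipy 1.17.1, 12 tests). Tables were joined with pandas 2.3.3 in Python 3.11.15, figures drawn with matplotlib 3.10.9, and the fit tested on simulated data. Coordinates are 1-based.

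The 10 genes and all lists (137 genes, all matched) were chosen with earlier results of these data known. Named from each list were up to 3 genes with the smallest adjusted p among those called in FSB against F, up to 2 in F_FSB against F, and for cell type lists the most abundant gene; 1 gene that this rule names is not reported here. Those named beside them (CDH1, CDH2, VIM, FOXD3, SOX10, PECAM1, ESAM, CLDN5, TP63 and the untested paralogs) were chosen after their values were seen. For each of the 9 members called in some comparison, the 3 genes of most similar profile were named. Alternatives changed the pseudocount, filter, scaling, trend, groups in the fit, replicate block and library left out. Averaging FSB replicates 1 and 2 was added after seeing the data. Replicate numbers in the labels are not stated to mark a shared batch, and only 1 of 9 same-numbered pairs of libraries had a correlation over 0.1.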

Additional observations from a re-analysis of the deposited data

How the results depend on the processing

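Calls of TFAP2A, TFAP2C, TWIST1, ZEB2 and ETS1 in FSB against F, and of TFAP2A, TFAP2C, TWIST1, SNAI2 and ETS1 in F_FSB against FSB, were kept under all 19 alternatives. Of these genes, TFAP2C passed the filter on low values through the FSB libraries alone and so had to differ in both comparisons. The members called ranged from 5 to 7 in each of these comparisons, and stayed at 0 in F_FSB against F, when 1 library was left out. Outside leave-one-out, SNAI1 lost its call in FSB against F with no filter (adjusted p = 0.0541 by limma), median ratios (0.0545), quantile normalization (0.0537) and FSB replicates 1 and 2 averaged (0.0835), and TWIST2 lost its call in F_FSB against FSB under the same 4 settings (0.0627, 0.0554, 0.0566 and 0.0891). ZEB1 lost its call in FSB against F with the average (0.0717). The SNAI2 change in FSB against F turned to -0.026 with median ratios and -0.027 with quantile normalization, and that of ETS1 in F_FSB against F to -0.10 with scaling to the same FPKM sum. Signs that turned when 1 library was left out were of values not called: in F_FSB against F, TFAP2C ran from -0.10 to 0.29, TWIST1 from -0.041 to 0.38, SNAI1 from -0.15 to 0.81 and ETS1 from -0.12 to 0.28, and in F_FSB against FSB TFAP2B ran from -0.31 to 1.14. The share differences of TFAP2A and TWIST1 in FSB against F ran from -6.42 to 11.6 and from -0.125 to 15.7 percentage points, lowest without F replicate 1 and F replicate 2. The cause was not tested.

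Over all genes, 68.0% of the calls in FSB against F were higher, but 49.6% with median ratios, 53.2% with quantile normalization and 61.6% with the same FPKM sum. In F_FSB against FSB these were 32.7%, 49.8%, 45.7% and 25.4%. Members stood at 5 higher and 1 lower in the first, and 1 higher (ZEB1) and 5 lower in the second, under both median ratios and quantile normalization. F_FSB against F called 1 gene, 0 with no filter, 0 with the replicate block and 0 with FSB replicates averaged, and 0 to 77 when 1 library was left out, with 77 without F replicate 1. The same FPKM sum shifted its median by -0.128. With the replicate block, 4842 and 4983 genes were called in FSB against F and F_FSB against FSB, and 7 and 6 members, as without it. Only 1 of 9 same-numbered pairs had a correlation of deviations over 0.1 (range -0.136 to 0.292), and 5 of 18 comparisons of a library with another group's libraries were highest for its own number. With no fragment counts in the tables, no counting limit can be given for low values such as those of TFAP2C.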

Other observations

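A library pattern like that of TFAP2B, a gene not called in any comparison, was looked for after its values were seen, over the same 9286 candidates. The nearest genes were the desmosome gene DSP (mean absolute difference 0.265), the Notch ligand JAG1 (0.372) and CTGF (0.384), a matrix-associated gene. DSP had 16.1, 1.89 and 3.18 FPKM in F, 10.9, 8.52 and 14.9 in FSB, and 24.8, 19.1 and 3.25 in F_FSB, so F replicate 1 and F_FSB replicates 1 and 2 were high and the remaining F and F_FSB libraries low, as for TFAP2B. JAG1 had 29.0, 5.08 and 11.7 FPKM in F and 55.6, 35.9 and 11.3 in F_FSB. These likenesses are descriptions of 9 libraries, chosen among many genes.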
